A study of Mus musculus with 32 samples.

Results

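Clec7a, Gpnmb, Axl, Cd9, Spp1, Igf1, Lgals3 and Dkk2 are 8 genes whose expression is known to be raised in microglia gathered at amyloid plaques. The first 4 encode proteins of the cell surface and the last 4 encode proteins that are secreted. They were taken from the deposited tables by their gene names, and each name was found as 1 of the 54532 genes. The genes were chosen for what they encode, with earlier results from these mice already known.

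The genes were measured by RNA-seq of the hippocampus from 32 mice, 8 in each of the groups 5xFAD/D-45113, 5xFAD/Veh, WT/D-45113 and WT/Veh, with 4 females and 4 males a group. All mice were 12 months old when the tissue was taken. 5xFAD mice carry human transgenes with familial Alzheimer's disease mutations, driven by Thy1 regulatory sequences that act in neurons, and WT mice carry none. D-45113 is a hydroxyl dendrimer (HD) that carries an inhibitor of CSF1R, the receptor that microglia need to survive, and it was injected intraperitoneally at 200 mg/kg, 2 times a week for 4 weeks from the age of 11 months. The Veh mice were given the dendrimer without the inhibitor, so every group received a dendrimer.

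Microglia that contact plaques change their expression programme. Genes of phagocytosis, of lipid handling and of the lysosome are raised, along with a set of surface receptors and secreted factors to which these 8 genes belong. The change depends in part on the receptor Trem2 and its adaptor Tyrobp. None of the 8 genes is restricted to microglia: Cd9 is also expressed by oligodendrocytes and astrocytes, Igf1 by interneurons, Spp1 by some neurons and by macrophages of the brain's borders, and Lgals3 by macrophages and neutrophils in general. In a sample of whole tissue, fewer cells of a type and less RNA per cell cannot be told apart.

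Promoters of the members were examined because the factor PU.1 (Spi1), which specifies myeloid cells including microglia, binds sites with the core letters GAGGAA. The RefSeq table for build GRCm38.p6 (mm10, the build of the files) held 10 promoters for the 8 genes, each with 250 bases before and 50 after the start of transcription. GAGGAA was present on either strand in 6 of the 10, belonging to 5 of the 8 genes. Both promoters of Clec7a overlap and hold the same GAGGAA. As background, with 1 promoter taken per gene, it was present in 28.3% of 27025 promoters of the same length. The 150 bases before the start are shown for 1 promoter of each of the 5 genes with GAGGAA, 5′ to 3′ on the gene's own strand. Capitals mark GAGGAA or its reverse complement TTCCTC and, in Igf1, also a TGANTCA match.
Clec7a, chr6:129472780-129472929, minus strand: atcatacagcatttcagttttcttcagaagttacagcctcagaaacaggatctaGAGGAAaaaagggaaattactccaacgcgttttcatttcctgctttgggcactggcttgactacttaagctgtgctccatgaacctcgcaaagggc
Axl, chr7:25788734-25788883, minus strand: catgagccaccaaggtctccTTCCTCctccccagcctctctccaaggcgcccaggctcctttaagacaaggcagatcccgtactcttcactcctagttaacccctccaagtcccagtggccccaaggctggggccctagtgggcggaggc
Spp1, chr5:104434961-104435110, plus strand: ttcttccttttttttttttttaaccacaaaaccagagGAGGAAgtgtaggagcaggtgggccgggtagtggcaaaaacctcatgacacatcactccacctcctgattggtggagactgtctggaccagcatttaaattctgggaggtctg
Igf1, chr10:87860961-87861110, plus strand: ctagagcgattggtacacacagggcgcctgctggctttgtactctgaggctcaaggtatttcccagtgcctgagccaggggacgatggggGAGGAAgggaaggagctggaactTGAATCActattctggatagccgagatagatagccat
Dkk2, chr3:132085142-132085291, plus strand: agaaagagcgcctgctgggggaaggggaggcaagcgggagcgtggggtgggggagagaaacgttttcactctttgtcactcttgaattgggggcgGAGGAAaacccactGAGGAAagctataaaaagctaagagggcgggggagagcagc

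In these promoters GAGGAA began 96 bases before the start in Clec7a, 113 in Spp1 and 60 in Igf1, and at both 55 and 41 bases before it in Dkk2. In Axl its reverse complement TTCCTC began 130 bases before the start. TGANTCA, a loose form of the AP-1 site in which N may be any base, was found in Igf1, as TGAATCA, and in Gpnmb. It was found in 7.93% of all promoters. CATGTG, an E-box of the MITF and TFE factors that regulate lysosomal genes, was found in 1 of the 10 promoters, that of Cd9, and in 14.1% of all promoters. The E-box CACGTG was found in 0 of the 10 and in 7.24% of all promoters, and no match overlapped one of another motif. The matches are a description of letters in these windows and were not tested as binding sites.

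The total count per mouse was 10707410 to 28869539 in 5xFAD/D-45113, 16536173 to 30368498 in 5xFAD/Veh, 14932699 to 21047277 in WT/D-45113 and 15444249 to 27921743 in WT/Veh. Thy1, whose sequences drive the transgenes, was above every WT mouse (at most 537 CPM) in 14 of 16 5xFAD mice. It was not in mice 1M (421 CPM) and 4F (516 CPM) of 5xFAD/D-45113, so the comparisons of the 8 genes in that group are also given without them. Clec7a was 20.2 CPM in 1M and 19.5 CPM in 4F, against at most 3.35 CPM in WT mice. A pan-myeloid score, the mean over 26 genes such as Aif1 and Ptprc of the log2 CPM relative to all 32 mice, was 0.18 to 0.79 in 5xFAD/D-45113 and 0.77 to 1.11 in 5xFAD/Veh. It was -0.94 to -0.27 in WT/D-45113 and -1.0 to -0.46 in WT/Veh. Hippocampal neuron markers were detected in all groups, but the choroid plexus score ran from -2.97 to 3.25 and the thalamus and habenula score from -1.50 to 2.03 over the 32 mice. Within 5xFAD/D-45113 the score of hippocampal excitatory neurons was lowest in mice 1M (-1.10) and 4F (-0.94), and its part in their Thy1 was not tested. Levels below are read counts scaled to library size, with TMM scaling (CPM). Comparisons between genes use the deposited FPKM, which are scaled by transcript length.

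**Figure D1:**
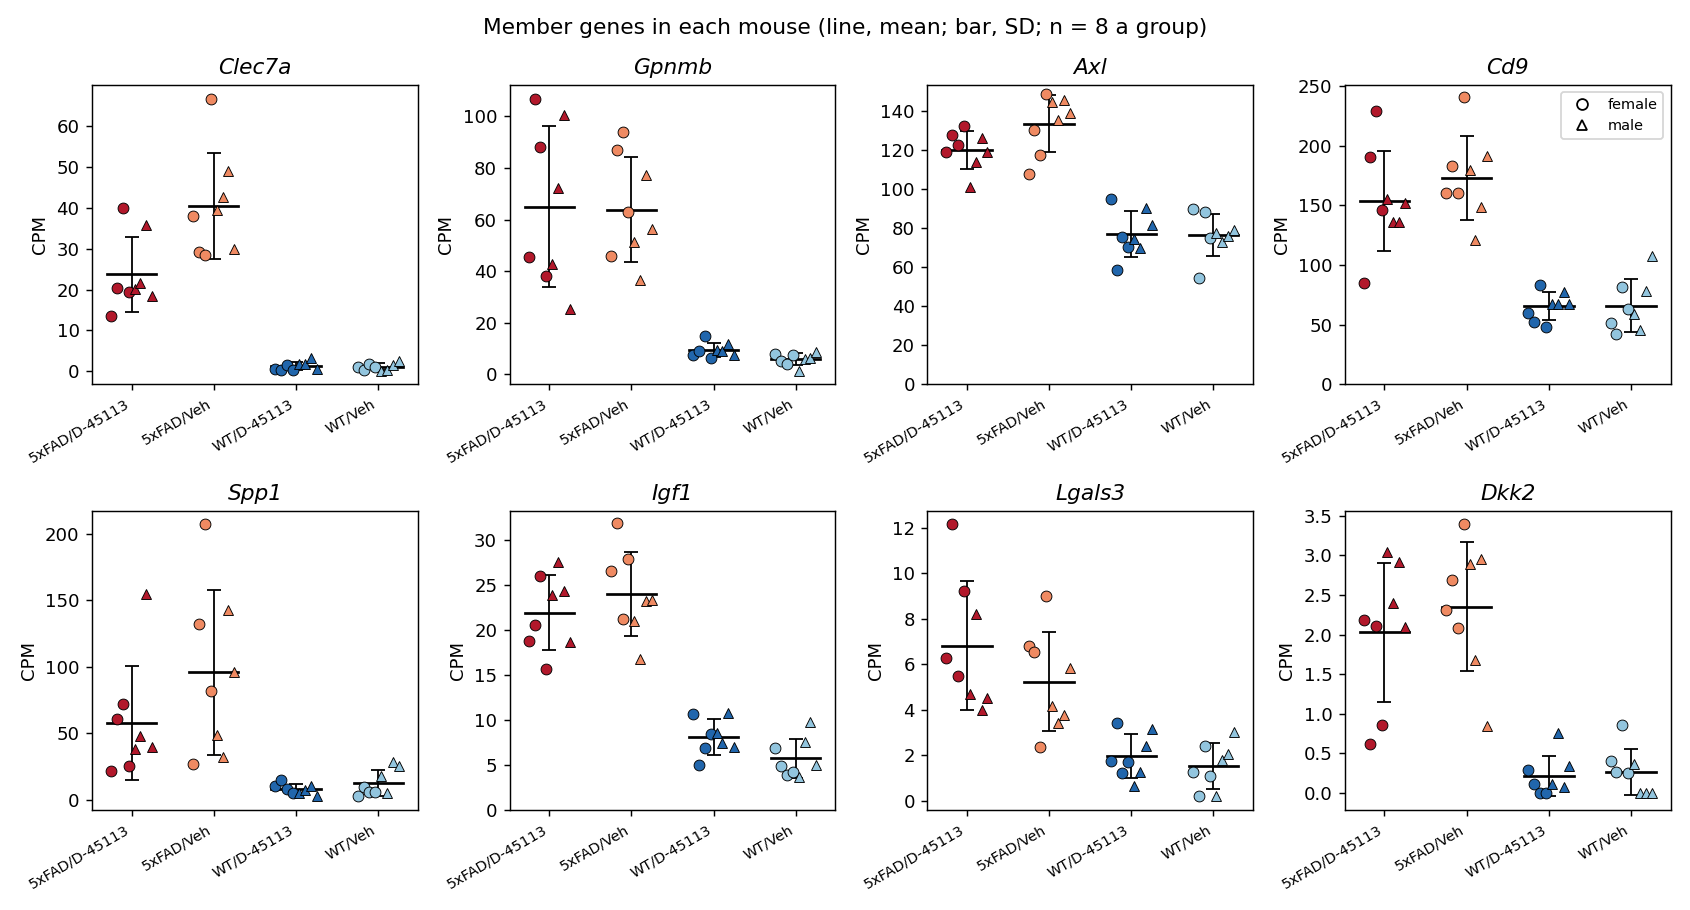
Level of each gene (CPM, linear axis from 0) in each of the 8 mice of the groups 5xFAD/D-45113, 5xFAD/Veh, WT/D-45113 and WT/Veh. Points are mice (circles, females; triangles, males), lines are means and bars are SDs. Clec7a, Gpnmb, Axl, Cd9 and Igf1 were higher in every 5xFAD mouse than in every WT mouse that had the same injection, while Dkk2 overlapped between the genotypes.

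Clec7a encodes dectin-1, a C-type lectin receptor that binds beta-glucans and signals through the kinase Syk. It spans chr6:129461591-129472779 on the minus strand (ENSMUSG00000079293), and the annotation in the files lists it as a polymorphic pseudogene. Its lowest, median and highest levels were 13.6, 20.2 and 39.9 CPM in 5xFAD/D-45113 mice, and 28.4, 38.6 and 66.7 CPM in 5xFAD/Veh mice. In WT mice they were 0.302, 1.06 and 3.35 CPM with D-45113, and 0.182, 1.09 and 2.61 CPM with vehicle. The genotypes were far apart and did not overlap, whereas the 5xFAD groups overlapped through mice 3F (39.9 CPM) and 3M (35.7 CPM), the only D-45113 mice not below every 5xFAD/Veh mouse.

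Gpnmb, which encodes a transmembrane glycoprotein of phagocytes and of pigment cells, lies at chr6:49036546-49070929 on the plus strand (ENSMUSG00000029816). In 5xFAD mice the lowest, median and highest levels were 25.4, 58.8 and 107 CPM with D-45113, and 36.6, 59.5 and 93.7 CPM with vehicle. The values in WT mice were 6.39, 9.08 and 14.9 CPM with D-45113, and 1.46, 6.08 and 8.62 CPM with vehicle. The 5xFAD groups covered nearly the same range, with the highest and the lowest of the 16 mice both in the D-45113 group. In WT mice, 5 of 8 with D-45113 were above every mouse with vehicle.

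Axl is a receptor tyrosine kinase of the TAM family, which recognizes dying cells through the bridging ligands Gas6 and Pros1. The gene lies at chr7:25757273-25788705 on the minus strand (ENSMUSG00000002602). Its lowest, median and highest levels were 101, 121 and 132 CPM in 5xFAD/D-45113 mice, and 108, 137 and 149 CPM in 5xFAD/Veh mice. In WT mice they were 58.6, 74.7 and 94.8 CPM with D-45113, and 54.6, 76.9 and 89.7 CPM with vehicle. Axl had the smallest spread of the 8 genes within each group, with a coefficient of variation of 8.15% in 5xFAD/D-45113 and 10.9% in 5xFAD/Veh.

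Cd9 encodes a tetraspanin, a membrane organizer that groups integrins and other receptors, and lies at chr6:125460266-125494791 on the minus strand (ENSMUSG00000030342). In 5xFAD mice the lowest, median and highest levels were 85.1, 149 and 229 CPM with D-45113, and 121, 170 and 241 CPM with vehicle. The values in WT mice were 48.3, 67.3 and 82.8 CPM with D-45113, and 42.0, 61.1 and 107 CPM with vehicle. The lowest 5xFAD/D-45113 mouse, 1F, was just above the highest WT/D-45113 mouse.

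Spp1 encodes osteopontin, a secreted phosphoprotein that binds integrins and Cd44. It lies at chr5:104435118-104441050 on the plus strand (ENSMUSG00000029304). Its lowest, median and highest levels were 21.6, 44.0 and 155 CPM in 5xFAD/D-45113 mice, and 26.8, 88.8 and 207 CPM in 5xFAD/Veh mice. In WT mice they were 2.86, 7.60 and 15.0 CPM with D-45113, and 2.74, 7.63 and 28.2 CPM with vehicle. Spp1 was widely spread in each group: its coefficient of variation was 74.1% in 5xFAD/D-45113 and 64.9% in 5xFAD/Veh, and 1 mouse of 5xFAD/Veh, 1F, was below the highest mouse of WT/Veh.

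Igf1 encodes insulin-like growth factor 1, a trophic factor for neurons and glia, and lies at chr10:87858265-87937042 on the plus strand (ENSMUSG00000020053). In 5xFAD mice the lowest, median and highest levels were 15.6, 22.2 and 27.6 CPM with D-45113, and 16.7, 23.2 and 31.8 CPM with vehicle. The values in WT mice were 4.97, 7.97 and 10.7 CPM with D-45113, and 3.71, 4.97 and 9.80 CPM with vehicle. The 5xFAD groups overlapped almost entirely and did not overlap the WT groups.

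Lgals3 encodes galectin-3, a lectin that binds beta-galactosides and damaged lysosomes. It lies at chr14:47367751-47386160 on the plus strand (ENSMUSG00000050335). Its lowest, median and highest levels were 3.98, 5.88 and 12.2 CPM in 5xFAD/D-45113 mice, and 2.37, 5.00 and 9.0 CPM in 5xFAD/Veh mice. In WT mice they were 0.655, 1.73 and 3.41 CPM with D-45113, and 0.182, 1.53 and 3.03 CPM with vehicle. The counts behind these levels were small, from 57 to 338 reads in 5xFAD mice and from 3 to 72 in WT mice.

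Dkk2 encodes a secreted regulator of Wnt signalling that binds the co-receptors Lrp5 and Lrp6. It lies at chr3:132085292-132180304 on the plus strand (ENSMUSG00000028031). In 5xFAD mice the lowest, median and highest levels were 0.611, 2.14 and 3.05 CPM with D-45113, and 0.842, 2.50 and 3.39 CPM with vehicle. In WT mice the median was 0.110 CPM with D-45113 and 0.256 CPM with vehicle, and the highest mice had 0.762 and 0.858 CPM. Dkk2 had 0 reads in 2 of 8 WT/D-45113 mice and 3 of 8 WT/Veh mice, which at these depths allows up to 0.168 and 0.194 CPM by counting error alone. It was the least expressed of the 8 genes, with at most 104 reads in any mouse.

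On the FPKM scale the mean levels in 5xFAD/Veh mice ran from Cd9 (85.6 ± 17.0) through Spp1 (58.7 ± 38.1), Axl (26.8 ± 2.75), Clec7a (15.5 ± 4.89), Gpnmb (9.91 ± 3.15), Lgals3 (2.85 ± 1.19) and Igf1 (2.45 ± 0.487) to Dkk2 (0.643 ± 0.224; SD, n = 8). In that order the ranges of mean ± SD overlapped between Cd9 and Spp1, between Spp1 and Axl, between Clec7a and Gpnmb, and between Lgals3 and Igf1. In WT/Veh mice the order differed. Cd9 (32.6 ± 10.8) and Axl (15.4 ± 2.11) led, and the mean of Clec7a (0.434 ± 0.318) stood below those of Gpnmb (0.900 ± 0.356), Lgals3 (0.816 ± 0.549) and Igf1 (0.585 ± 0.218, FPKM, SD, n = 8). The range of mean ± SD of Clec7a overlapped those of Gpnmb, Lgals3 and Igf1, and Clec7a had as few as 3 reads there.

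Setting 5xFAD/Veh against WT/Veh asks how the genes differ in a brain with plaques when no inhibitor was given. All 8 genes were higher in 5xFAD/Veh mice (edgeR's quasi-likelihood test, adjusted p from 9.23e-11 to 0.00233), where 3.65% of the 16723 genes tested were called higher. All 8 passed the filter on low counts. Dkk2, with at most 20 reads in any WT mouse, passed it only through the 5xFAD mice. Its place among the 8 in both comparisons of genotypes thus depended on the groups where it is high. The median log2 fold change of the 8 was 2.51, against -0.02 over all genes tested.
Clec7a changed most, averaging 40.4 ± 12.9 CPM in 5xFAD/Veh and 1.14 ± 0.835 CPM in WT/Veh (SD, n = 8 each), 35.0-fold higher with a 95% interval of 19.3 to 63.4 (log2 fold change 5.13, SE 0.42). Gpnmb averaged 63.9 ± 20.3 CPM in 5xFAD/Veh and 5.82 ± 2.31 CPM in WT/Veh (log2 fold change 3.47, fold interval 7.23 to 16.9). Among the surface genes, Cd9 was 2.65-fold higher (2.06 to 3.39) and Axl, the smallest change of the 8, was 1.76-fold higher (1.53 to 2.02).
Of the secreted genes, Dkk2 was 8.43-fold higher (3.58 to 19.9), with the widest interval among them, and Spp1 was 7.66-fold higher (3.76 to 15.6). Igf1 averaged 24.0 ± 4.69 CPM in 5xFAD/Veh and 5.74 ± 2.14 CPM in WT/Veh, 4.23-fold higher (3.26 to 5.49). Lgals3 was 3.49-fold higher (2.01 to 6.06), with the largest adjusted p of the 8 (0.00233).
For 5 of the 8, Clec7a, Gpnmb, Axl, Cd9 and Igf1, every 5xFAD/Veh mouse was above every WT/Veh mouse, as for 2.16% of all genes tested. Spp1, Lgals3 and Dkk2 overlapped by 1 mouse each, since 7 of 8 5xFAD/Veh mice exceeded the highest WT/Veh mouse. Within 1 sex the calls of these 3 were less sure: in males alone the log2 fold change of Spp1 was 2.04 (adjusted p = 0.112) and that of Lgals3 1.26 (adjusted p = 0.274), and in females alone that of Dkk2 was 2.54 (adjusted p = 0.0777; edgeR). Spp1 averaged 19.3 ± 10.3 CPM in the 4 males and 5.94 ± 2.72 CPM in the 4 females of WT/Veh, and its log2 fold change was 4.24 in females alone.

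The same comparison between the mice given D-45113, 5xFAD/D-45113 against WT/D-45113, sets other mice against each other than the vehicle comparison. All 32 libraries entered 1 fit, however, so its p-values and intervals share the estimate of the spread with that comparison. In a fit of only the groups compared, 8 members were called as well. All 8 genes were again higher in 5xFAD/D-45113 mice (edgeR, adjusted p from 1.44e-08 to 0.0031), where 3.72% of all genes tested were called higher. The median log2 fold change of the 8 was 2.30, against 0.02 over all genes tested. Clec7a averaged 23.7 ± 9.12 CPM in 5xFAD/D-45113 and 1.30 ± 1.03 CPM in WT/D-45113 (SD, n = 8 each), 18.4-fold higher (95% interval 10.3 to 32.9). Dkk2 was 9.66-fold higher (3.93 to 23.8), Spp1 7.25-fold (3.54 to 14.8) and Gpnmb 6.88-fold (4.56 to 10.4).
The smaller changes were those of Lgals3 (3.52-fold, 2.03 to 6.11), Igf1 (2.71-fold, 2.10 to 3.51), Cd9 (2.36-fold, 1.84 to 3.02) and Axl (1.57-fold, 1.36 to 1.80). Every 5xFAD/D-45113 mouse was above every WT/D-45113 mouse for 7 of the 8 genes, all except Dkk2, as for 1.00% of all genes tested. Without mice 1M and 4F, whose Thy1 was within the WT range, all 8 were called and their log2 fold changes ran from 0.66 (Axl) to 4.28 (Clec7a). The Dkk2 value rests partly on WT/D-45113 mouse 2M, which had the most Dkk2 of the WT/D-45113 group: without it the log2 fold change was 3.94 (adjusted p = 2e-04), against 3.27 with it.

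**Figure D2:**
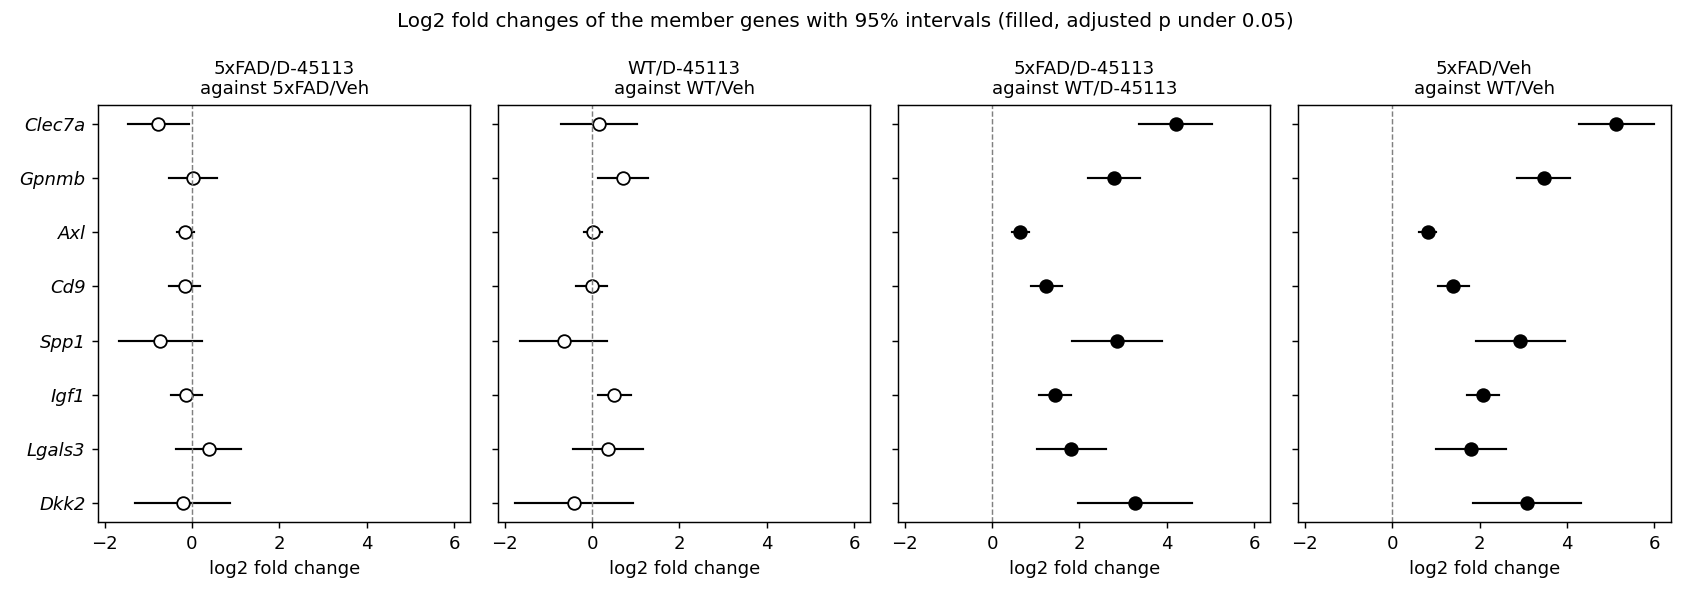
Log2 fold change (x axis) of the 8 genes in 4 comparisons, each of the group named first over the group named second, with 95% intervals from edgeR. Filled points had an adjusted p under 0.05 over all genes tested. All 8 genes lie right of 0 in the comparisons between genotypes, and the points of the comparisons between treatments are open.

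The comparison of 5xFAD/D-45113 with 5xFAD/Veh asks what the CSF1R inhibitor changed in mice with plaques. With edgeR, 0 of the 8 genes passed, where 3.96% of all genes tested were called in either direction. At an unadjusted p under 0.05 there was 1 gene, Clec7a, where 19.9% of all genes tested had such a p. DESeq2 called 0 and limma voom called 1, again Clec7a. Their median log2 fold change was -0.16, against 0.01 over all genes tested.
Clec7a averaged 23.7 ± 9.12 CPM in 5xFAD/D-45113 and 40.4 ± 12.9 CPM in 5xFAD/Veh (SD, n = 8 each), and 6 of 8 D-45113 mice were below every vehicle mouse. Its log2 fold change was -0.77 (SE 0.34, 95% interval -1.46 to -0.08, adjusted p = 0.198 from edgeR), and the adjusted p was 0.0142 with limma voom and 0.253 with DESeq2. The call for this gene therefore differed between tests, at log2 fold changes of -0.83 and -0.77. It was -0.79 in females alone and -0.74 in males alone.
Spp1 averaged 57.6 ± 42.7 CPM in 5xFAD/D-45113 and 95.8 ± 62.2 CPM in 5xFAD/Veh, a log2 fold change of -0.73 with an interval of -1.68 to 0.22 (adjusted p = 0.412). Gpnmb averaged 64.9 ± 31.1 CPM in 5xFAD/D-45113 and 63.9 ± 20.3 CPM in 5xFAD/Veh, a log2 fold change of 0.02 with an interval of -0.52 to 0.57. The difference between the groups was smaller than the spread among mice for both genes.
For Axl the log2 fold change was -0.15 (-0.35 to 0.05), for Cd9 -0.17 (-0.52 to 0.18) and for Igf1 -0.13 (-0.48 to 0.23), so each interval reached 0 and left room for less than a halving. Lgals3 had 0.38 (-0.37 to 1.13) and Dkk2 -0.21 (-1.30 to 0.88), so a doubling of Lgals3 and a halving of Dkk2 lie within their intervals. These p-values do not show that the levels were equal. Without mice 1M and 4F 0 of the 8 passed, and the log2 fold changes ran from -0.70 (Clec7a, adjusted p = 0.412) to 0.37 (Lgals3), with -0.53 for Spp1 and 0.19 for Gpnmb.

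Other microglial genes were called in the same comparison. Of 26 pan-myeloid genes tested, 0 were higher and 4 lower after D-45113 in 5xFAD mice, with a median log2 fold change of -0.46 and 26 of 26 negative. The 4 were Itgam (10.4 ± 3.91 CPM in 5xFAD/D-45113 and 18.8 ± 2.64 CPM in 5xFAD/Veh), the transcription factor Irf8, and Fcer1g and Plcg2, which are also on the list of Clec7a partners. Of 33 other genes of plaque microglia, 5 were lower and 0 higher, with a median of -0.26, among them the integrin Itgax (25.2 ± 13.7 CPM in 5xFAD/D-45113 and 52.8 ± 11.8 CPM in 5xFAD/Veh, adjusted p = 0.0243 from edgeR) and B2m (log2 fold change -0.63).
Most homeostatic genes were lower as well, with 17 of 20 negative and a median log2 fold change of -0.44. Of 20, 6 were lower, including Fcrls (46.7 ± 19.5 CPM in 5xFAD/D-45113 and 113 ± 26.3 CPM in 5xFAD/Veh), Selplg and Olfml3. Sparc, which astrocytes also express, was higher. DESeq2 and limma voom called 7 and 10 of the pan-myeloid genes. The number of calls depended on the model and on the mice used. Of all genes, 662 were called in this comparison. With the scores of thalamus and of choroid plexus as covariates 1 was called, and with the border-associated macrophage and monocyte score 0. In 1 sex alone, where fewer mice also give fewer calls, 116 were called in females and 0 in males.
Set against the pan-myeloid score of the same mouse, the members did not stand in 1 order. The log2 level of Clec7a minus that score was 4.05 ± 0.35 in 5xFAD/D-45113 and 4.35 ± 0.35 in 5xFAD/Veh, while that of Gpnmb was 5.42 ± 0.53 and 5.00 ± 0.46 in the same groups. For Lgals3 it was 2.25 ± 0.60 in 5xFAD/D-45113 and 1.37 ± 0.59 in 5xFAD/Veh, and for Axl 6.46 ± 0.25 and 6.12 ± 0.13 (log2, SD, n = 8 each). These differences are a description and were not tested.

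**Figure D3:**
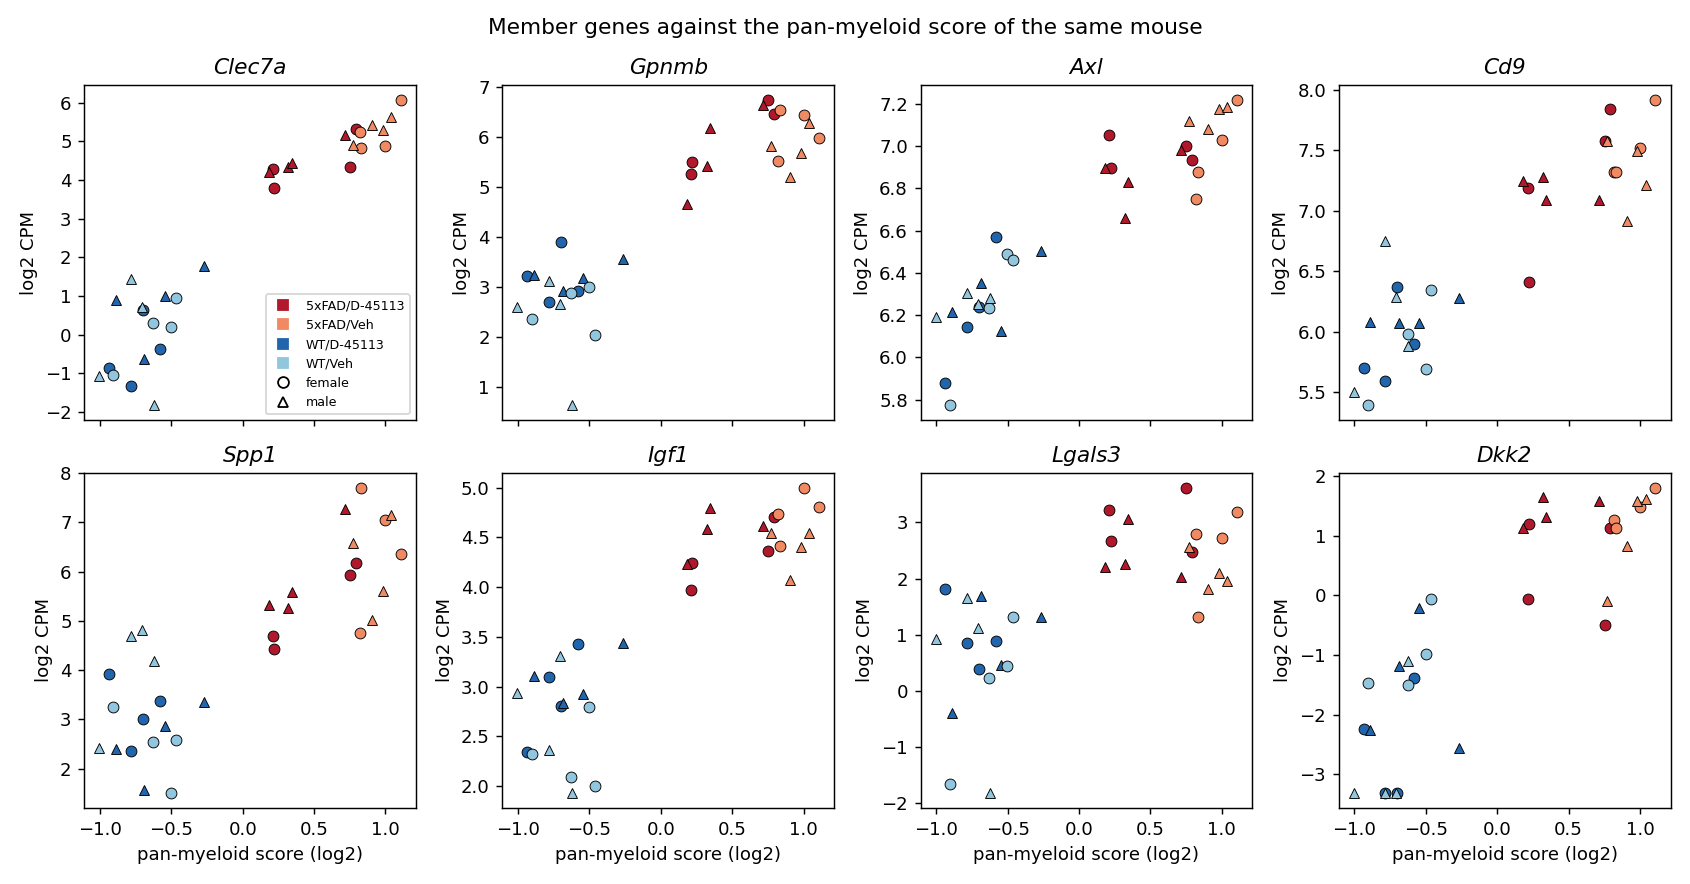
Log2 CPM of each gene (y axis) against the pan-myeloid score (x axis, log2 relative to all 32 mice) in each mouse, coloured by group (circles, females; triangles, males). The 5xFAD mice lie right of the WT mice in every panel, and the 5xFAD/D-45113 mice fall into 5 at 0.18 to 0.35 and 3 (2F, 3F and 3M) at 0.72 to 0.79.

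The 5xFAD/D-45113 mice were uneven in this score. In 2F, 3F and 3M it was 0.75, 0.79 and 0.72, close to the lowest 5xFAD/Veh mice, and in the other 5 it was 0.18 to 0.35. Mice 3F and 3M were also the D-45113 mice with the most Clec7a, and 2F, 3F and 3M were those with the most Gpnmb and Spp1. Marker lists of other cells moved with the treatment as well: the border-associated macrophage and monocyte score was -0.16 to 1.03 in 5xFAD/D-45113 and -1.0 to 0.23 in 5xFAD/Veh, with summed levels of 23.8 to 46.1 CPM and 22.7 to 39.1 CPM over 16 genes, 0 of which were at 0 in a whole group.
The neutrophil score was -0.21 to 1.48 in 5xFAD/D-45113 and -0.99 to 0.08 in 5xFAD/Veh. The summed level of its 10 genes was 12.1 to 19.3 CPM in 5xFAD/D-45113 and 13.6 to 26.4 CPM in 5xFAD/Veh, and the defining gene Ly6g was at 0 in every mouse of both groups. Of 3 neutrophil genes that passed the filter, edgeR called 2 higher: S100a8 (1.46 ± 0.750 CPM in 5xFAD/D-45113 and 0.181 ± 0.124 CPM in 5xFAD/Veh) and S100a9 (1.46 ± 0.808 and 0.219 ± 0.183 CPM). Csf3r, the most abundant and also a microglial gene, averaged 11.8 ± 2.61 CPM in 5xFAD/D-45113 and 19.8 ± 4.21 CPM in 5xFAD/Veh. The summed choroid plexus level was 325 to 9332 CPM in 5xFAD/D-45113 and 329 to 1472 CPM in 5xFAD/Veh, and the summed thalamus and habenula level was 500 to 2189 CPM and 293 to 795 CPM. With both of these regional scores in the model as covariates, the log2 fold change of Lgals3 was 0.01 and that of Clec7a -0.73 (adjusted p = 0.734), and with the border-associated score as a covariate they were 0.45 and -0.78 (adjusted p = 0.525). With the pan-myeloid score as a covariate Clec7a had 0.23 (SE 0.41). That score hardly overlapped between 5xFAD/D-45113 (0.18 to 0.79) and 5xFAD/Veh (0.77 to 1.11), so this fit separates it poorly from the treatment.
The part of these cells in the values of the 8 genes was not tested beyond those fits.

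In WT mice, where there are no plaques, the comparison of WT/D-45113 with WT/Veh asks what the inhibitor changed on its own. With edgeR, 0 of the 8 genes passed, where 0.0239% of all genes tested were called. At an unadjusted p under 0.05 there were 2, where 6.81% of all genes tested had such a p, and DESeq2 and limma voom called 0. Igf1 averaged 8.09 ± 1.96 CPM in WT/D-45113 and 5.74 ± 2.14 CPM in WT/Veh (SD, n = 8 each; log2 fold change 0.51, interval 0.14 to 0.88, adjusted p = 0.566). Gpnmb averaged 9.45 ± 2.72 CPM in WT/D-45113 and 5.82 ± 2.31 CPM in WT/Veh (log2 fold change 0.71, interval 0.13 to 1.29, adjusted p = 0.641).
Neither held up over all genes. The remaining 6 genes had log2 fold changes from -0.65 (Spp1) to 0.37 (Lgals3). In these mice the pan-myeloid score overlapped almost fully, as given above, while the border-associated macrophage and monocyte score was -0.42 to 1.37 in WT/D-45113 and -1.05 to -0.23 in WT/Veh. The summed level of its 16 genes was 19.8 to 84.2 CPM in WT/D-45113 and 22.9 to 39.5 CPM in WT/Veh. With that score as a covariate the log2 fold change of Igf1 was 0.31 and that of Gpnmb 0.55, and its part in them was not tested otherwise.

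Whether the inhibitor acted differently in the genotypes was tested as the interaction. With edgeR, 0 of the 8 genes passed and 0 of all genes tested did, 0%, although 1 of the 8 and 1591 of all genes had an unadjusted p under 0.05. Of all genes DESeq2 called 14 and limma voom 0, and both called 0 of the 8. The lowest p among the 8 was that of Igf1, whose log2 fold change with D-45113 was -0.13 in 5xFAD and 0.51 in WT mice, a difference of -0.64 (SE 0.25, interval -1.16 to -0.13, adjusted p = 0.41). For Clec7a the difference was -0.93 (interval -2.04 to 0.19) and for Gpnmb -0.68 (-1.48 to 0.11). Without mice 1M and 4F 0 of the 8 passed. No difference in response between 5xFAD and WT mice was therefore shown for any of the 8.

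Females and males were compared within the 5xFAD mice, as an average over the 5xFAD/D-45113 and 5xFAD/Veh groups. With edgeR, DESeq2 and limma voom, 0 of the 8 genes differed, and 0 had an unadjusted p under 0.05 with edgeR, which called 0.0336% of 17831 genes. The largest difference was that of Lgals3, which averaged 8.28 ± 3.04 CPM in females and 5.35 ± 1.94 CPM in males of 5xFAD/D-45113, and 6.18 ± 2.77 CPM in females and 4.29 ± 1.07 CPM in males of 5xFAD/Veh (SD, n = 4 each). Its log2 fold change of females over males was 0.58, with an interval of -0.18 to 1.34 (adjusted p = 0.983 from edgeR). Gpnmb had 0.29 (-0.28 to 0.87), and Clec7a -0.02 (-0.69 to 0.66). Without mice 1M and 4F 0 of the 8 differed, and Lgals3 had 0.52 (SE 0.41).

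The partners of the surface genes were examined from lists of their known ligands, relatives and signalling proteins. Of 14 Clec7a partners tested, 5 rose and 1 fell in 5xFAD/Veh relative to WT/Veh. The adaptor Fcer1g averaged 41.6 ± 8.80 CPM in 5xFAD/Veh and 10.5 ± 2.38 CPM in WT/Veh, and Tlr2, a receptor that cooperates with dectin-1, averaged 15.7 ± 3.63 CPM in 5xFAD/Veh and 2.69 ± 1.31 CPM in WT/Veh (SD, n = 8 each). The tetraspanin Cd37, which regulates dectin-1 at the surface, and the exchange factor Vav1 also rose, with log2 fold changes of 1.79 and 1.43. In 5xFAD/D-45113 against 5xFAD/Veh, 2 of the 14 were lower, Fcer1g (log2 fold change -0.58) and Plcg2 (-0.54).
Of 8 relatives and regulators of Gpnmb tested, only Cd44, a receptor to which Gpnmb binds, was higher with the genotype in vehicle mice (19.6 ± 6.40 and 5.11 ± 1.02 CPM). No MITF family factor among these 8 was called. The list held 9 genes, and its MITF family factor Tfec had 0 reads in every WT/D-45113 mouse. Of 14 genes around Axl, Pros1, a ligand of the TAM family and not of Axl in particular, rose (41.1 ± 5.00 CPM in 5xFAD/Veh and 20.3 ± 2.27 CPM in WT/Veh). Socs3 and the protease Adam17, which sheds surface receptors, rose as well. With D-45113 in 5xFAD mice 0 of these 14 passed with edgeR, DESeq2 or limma voom, and 6 had an unadjusted p under 0.05, led by the sister receptor Tyro3 (log2 fold change -0.47, adjusted p = 0.0899 from edgeR).
Of 17 tetraspanins and Cd9 partners, 4 rose in 5xFAD/Veh relative to WT/Veh: Cd37, Cd53 (46.3 ± 12.0 and 13.6 ± 4.36 CPM), Cd63 and the laminin receptor subunit Itga6. With D-45113 in 5xFAD mice edgeR called 1 of the 17, Tspan33, which was higher (29.0 ± 11.2 CPM in 5xFAD/D-45113 and 16.8 ± 2.90 CPM in 5xFAD/Veh), and DESeq2 and limma voom called 2 each.

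Of the partners of the secreted genes, 12 receptors and processing enzymes of Spp1 were tested. Itgb5 (175 ± 19.1 CPM in 5xFAD/Veh and 85.0 ± 13.5 CPM in WT/Veh), Itgb3 and Cd44, all of which take part in binding osteopontin, were higher in 5xFAD/Veh. Itgb5 was lower with D-45113 in 5xFAD mice (116 ± 17.4 CPM in 5xFAD/D-45113 and 175 ± 19.1 CPM in 5xFAD/Veh, adjusted p = 0.00144 from edgeR), although Spp1 itself was not called. The protease gene Mmp9 was higher there, at low levels (2.39 ± 1.48 and 0.879 ± 0.439 CPM).
Of 17 genes around Igf1, the binding protein gene Igfbp5 rose in 5xFAD/Veh relative to WT/Veh (458 ± 77.4 and 239 ± 40.3 CPM) and the receptor substrate gene Irs2 fell (79.2 ± 10.7 and 103 ± 14.2 CPM). With D-45113 in 5xFAD mice edgeR called 1 of the 17, Igf2 (3.06 ± 1.69 CPM in 5xFAD/D-45113 and 0.955 ± 0.668 CPM in 5xFAD/Veh), whereas DESeq2 called 2 and limma voom called 0. Igf2 is also expressed in the choroid plexus and meninges. The summed level of 16 genes of meninges and fibroblasts was 512 to 1576 CPM in 5xFAD/D-45113 and 307 to 694 CPM in 5xFAD/Veh, and its part in the Igf2 value was not tested.
Of 12 galectins and Lgals3 partners, Trem2 (93.8 ± 25.0 and 16.7 ± 2.51 CPM), the binding protein gene Lgals3bp (115 ± 22.4 and 24.8 ± 7.30 CPM) and Lgals9 rose in 5xFAD/Veh relative to WT/Veh. With D-45113 in 5xFAD mice 0 of the 12 passed with edgeR, DESeq2 or limma voom, and 2 had an unadjusted p under 0.05.
The Wnt pathway genes around Dkk2 were not called in 5xFAD/Veh against WT/Veh: 0 of 15 passed with edgeR, DESeq2 or limma voom, 4 had an unadjusted p under 0.05, and the median log2 fold change was -0.01. Its co-receptor Lrp5 had a log2 fold change of 0.34 (adjusted p = 0.2 from edgeR). With D-45113 in 5xFAD mice 0 of the 15 passed with edgeR or limma voom, 2 had an unadjusted p under 0.05, and DESeq2 called 2.
The comparison of 5xFAD/D-45113 with WT/D-45113 sets other mice against each other but shares its fit with the vehicle comparison. In it 6 of the 14 Clec7a partners, 1 of 8 around Gpnmb, 2 of 14 around Axl and 6 of 17 around Cd9 were higher. Of the lists of the secreted genes, 3 of 12 around Spp1, 1 of 17 around Igf1, 4 of 12 around Lgals3 and 0 of 15 around Dkk2 were higher. For Dkk2, DESeq2 and limma voom called 1 each and 3 had an unadjusted p under 0.05. In WT/D-45113 against WT/Veh, 0 genes of these 8 lists passed with edgeR or limma voom, at most 2 on any list had an unadjusted p under 0.05, and DESeq2 called 1, on the Clec7a list. Beside these counts stand the edgeR shares of all genes tested. In 5xFAD/Veh against WT/Veh 3.65% were called higher and 35 of 16723 genes lower, and 11.1% had an unadjusted p under 0.05. In 5xFAD/D-45113 against 5xFAD/Veh 3.96% were called and 19.9% had such a p. In 5xFAD/D-45113 against WT/D-45113 3.72% were called higher and 18.3% had such a p. In WT/D-45113 against WT/Veh these shares were 0.0239% and 6.81%. Whether any list exceeded them was not tested.

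Microglial lists rose with the genotype together with the 8 genes. Of 33 other genes of plaque microglia, 25 were higher and 0 lower in 5xFAD/Veh against WT/Veh, with a median log2 fold change of 1.76. Itgax averaged 52.8 ± 11.8 CPM in 5xFAD/Veh and 0.480 ± 0.243 CPM in WT/Veh, and the lysosomal gene Cd68 averaged 72.0 ± 14.2 and 12.7 ± 4.36 CPM (SD, n = 8 each). Of 26 pan-myeloid genes 24 were higher, with a median of 1.66, and of 20 homeostatic genes 12 were higher, with a median of 0.62. Of 16 oligodendrocyte genes, which include no member but mark cells that express Cd9, 0 passed with edgeR, DESeq2 or limma voom and 1 had an unadjusted p under 0.05 (median -0.04). Of 14 genes of astrocytes, which also express Cd9, 2 were higher by edgeR, and DESeq2 and limma voom called 2 each. They were the filament gene Gfap (2356 ± 372 CPM in 5xFAD/Veh and 324 ± 154 CPM in WT/Veh) and the water channel gene Aqp4 (406 ± 71.7 and 210 ± 42.8 CPM), and the part of astrocytes in the Cd9 value was not tested.
The log2 level of each member minus the pan-myeloid score separated the genes. For Clec7a it was 4.35 ± 0.35 in 5xFAD/Veh and 0.66 ± 1.09 in WT/Veh, and for Gpnmb 5.00 ± 0.46 and 3.12 ± 0.85. For Cd9 it was 6.48 ± 0.27 in 5xFAD/Veh and 6.68 ± 0.43 in WT/Veh, and for Axl 6.12 ± 0.13 and 6.95 ± 0.15. Among the surface genes, Clec7a and Gpnmb thus stood apart from WT mice by more than the pan-myeloid genes did, Cd9 by about as much and Axl by less. The secreted genes also had higher means in 5xFAD/Veh than in WT/Veh: Dkk2 0.27 ± 0.51 and -1.18 ± 1.14, Spp1 5.34 ± 1.05 and 3.95 ± 1.26, Igf1 3.63 ± 0.27 and 3.17 ± 0.59, and Lgals3 1.37 ± 0.59 and 0.98 ± 1.32. Their ranges of mean ± SD overlapped. These values are a description with no test. With the score as a covariate 0 of the 8 members and 0 of all genes were called in this comparison. The score was 0.77 to 1.11 in 5xFAD/Veh and -1.0 to -0.46 in WT/Veh, without overlap. That fit therefore cannot separate the score from genotype for any gene, and the cause was not tested.

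How the members varied among mice of 1 group is given as a description. Over the 28 pairs of members, the Pearson r of their log2 levels was positive in 20 pairs within 5xFAD/D-45113 and in 22 pairs within 5xFAD/Veh, with medians of 0.24 and 0.25 over 8 mice each. Gpnmb and Spp1 in 5xFAD/Veh had the highest r. In 5xFAD/D-45113 mice this pair had r = 0.720 and Spearman's rho = 0.714 (exact permutation test, 2-sided, p = 0.0386 and 0.0576, adjusted p = 0.432 and 0.461 over 56 relations). In 5xFAD/Veh mice r was 0.935 and rho 0.929 (exact permutation test, p = 0.00119 and 0.00223, adjusted p = 0.0667 and 0.125). Without the 2 mice farthest from the median of Gpnmb, r was 0.904 with D-45113 and 0.897 with vehicle. The lowest p in 5xFAD/D-45113 was that of Lgals3 with Dkk2, which ran the opposite way (r = -0.852, rho = -0.619, exact permutation test, p = 0.00444 and 0.115, adjusted p = 0.124 and 0.494), and r was -0.389 without the 2 mice farthest from the median of Lgals3. No relation of the 56 passed after adjustment, and 5 had an unadjusted p of r under 0.05, 3 in 5xFAD/D-45113 and 2 in 5xFAD/Veh.

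**Figure D4:**
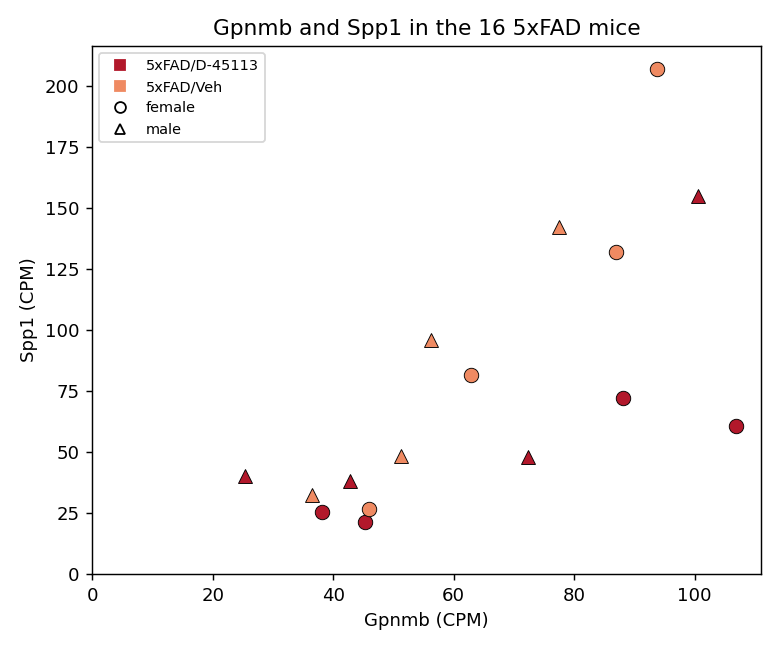
Spp1 (y axis, CPM) against Gpnmb (x axis, CPM) in the 8 5xFAD/D-45113 and 8 5xFAD/Veh mice (circles, females; triangles, males), on linear axes from 0. In both groups mice with more Gpnmb tended to have more Spp1, and 5xFAD/D-45113 mouse 3M stands above its group at 155 CPM of Spp1.

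Other genes were ranked by how closely their log2 levels followed each member over the 16 5xFAD mice, after each group was centred on its own mean. Among 14664 genes with a mean of at least 1 CPM, the closest to Clec7a were Cenpq (Pearson r = 0.858), Pycard (0.825) and Naip2 (0.804). Those closest to Gpnmb were Gusb (0.886), Ctsb (0.827) and Il17ra (0.826), and Gusb was also the closest to Spp1 (0.848). Grn was the closest to Igf1 (0.867), Nudt19 to Cd9 (0.888), Ankrd39 to Axl (0.882), Tapbp to Lgals3 (0.876) and Sass6 to Dkk2 (0.871). The largest of 14664 correlations over 16 mice are high by selection, and the libraries share depth and tissue makeup, so these values are a description with no test.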

How the data were processed

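RNA-seq of the hippocampus of 32 mice was used, and groups and mouse numbers were taken from the labels. For 54532 genes the authors deposited both raw read counts and FPKM. Library preparation, sequencing and mapping were done by a commercial provider, and the submitters' processing notes name mm10 as the build. Aligner and counter were not given in the sources used here. Every value column was matched to 1 mouse.

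Counts were analysed with edgeR 4.0.16 in R 4.3.3. Genes were filtered with filterByExpr, library sizes were scaled with TMM, and all 32 libraries entered 1 robust quasi-likelihood fit of the 4 groups (16723 genes). A model with 8 groups served the comparison of the sexes (17831 genes). Benjamini-Hochberg adjustment of p-values ran over all genes tested, with calls at 0.05. CPM carry the TMM scaling, log2 CPM a prior count of 2. SEs of log2 fold changes were taken as their size over the root of F. Intervals of fold changes are 95% intervals of the fit. Gene lists (22 lists, 349 genes) gave counts and scores only, and scores leave out genes with a mean under 0.1 CPM.

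The members, lists and comparisons were chosen with earlier results of these data known. All 8 members are named in each comparison. Of each list, up to 4 genes with the smallest p among those called are named, and up to 2 as values where none was called. The alternatives tried were DESeq2 1.42.0, RLE size factors, limma 3.58.1 with voom, limma trend on log2(FPKM + 1) and log2(FPKM + 0.1), other filters, sex, marker scores or the replicate block in the model, fewer samples, and each mouse left out. The steps were tested on simulated counts. Promoters came from RefSeq, and Python 3.11.15 with matplotlib 3.10.9 made the plots. No protein sequence was used here.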

Additional observations from a re-analysis of the deposited data

Results flagged for a closer look

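In 2 of 32 combinations of gene and group, 1 mouse stood far from the other 7 by Dixon's ratio of its gap to the group's range, above the critical value of 0.526 for 8 mice. Chance gives such a mouse in about 1 of 20 groups if levels are normally distributed. The ratio was taken on linear CPM, and whether those were so distributed was not tested. Spp1 was 154.703 CPM in 5xFAD/D-45113 mouse 3M, against 72.4 CPM in the next mouse (ratio 0.618). Without 3M the log2 fold change of Spp1 was -1.13 in 5xFAD/D-45113 against 5xFAD/Veh, still not called (adjusted p = 0.134 from edgeR). Dkk2 was 0.762 CPM in WT/D-45113 mouse 2M, from 12 reads, against 0.341 CPM in the next mouse (ratio 0.553).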

How the results depend on the processing

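The counts of members called (8, 0, 0, 8, 0 and 0 over the 6 comparisons) did not change with any of the 32 mice left out. They were also within 1.5 times of these under the other alternatives, except as follows. In 5xFAD/D-45113 against 5xFAD/Veh, 1 member was called with limma voom and 1 with limma trend on log2(FPKM + 1) at a mean of at least 1 FPKM, in both cases Clec7a (log2 fold change -0.83, adjusted p = 0.0142, and -0.73, adjusted p = 0.0194). Over its other alternatives the adjusted p of Clec7a reached 0.903. With the pan-myeloid score as a covariate 0 members were called in 5xFAD/Veh against WT/Veh and 0 in 5xFAD/D-45113 against WT/D-45113, and the sign of Dkk2 was reversed in the vehicle mice (-0.23, SE 1.72, adjusted p = 1). In that fit 0 of all genes were called in both comparisons and in 5xFAD/D-45113 against 5xFAD/Veh. The score did not overlap between genotypes (at most -0.27 in WT and at least 0.18 in 5xFAD mice). The fit therefore cannot separate the score from genotype, and the cause was not tested. In 1 sex alone, with 4 mice a group, 6 or 7 members were called in each comparison of genotypes. In 5xFAD/D-45113 against WT/D-45113, Spp1 (log2 fold change 2.24, adjusted p = 0.0884) and Lgals3 (2.04, adjusted p = 0.0649) were lost in females, and Lgals3 (1.54, adjusted p = 0.214) and Dkk2 (3.02, adjusted p = 0.089) in males.

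Mouse numbers are shared between groups by label only. Of 48 pairs with the same number and sex, 17 had deviations from the group means that correlated over 0.1 (range -0.23 to 0.28), and 8 of 32 mice correlated best with a mouse of their own number. With the replicate block 8, 0, 0, 8 and 0 members were called in the 5 comparisons it could be fitted to. Of all genes, 717 were called in 5xFAD/D-45113 against 5xFAD/Veh with the block and 662 without it; DESeq2 called 1126, no filter 379, females alone 116 and males alone 0. Without mice 1M and 4F 188 were called, without 3F and 4F 231, and 1 with the scores of thalamus and of choroid plexus in the model. In WT/D-45113 against WT/Veh, 4 genes were called, 26 with DESeq2 and 40 in males alone. The border-associated macrophage and monocyte score and the libraries 3F and 4F, with the lowest totals, were chosen for alternatives after seeing the data, and changed none of the counts of members. With that score 0 of all genes were called in 5xFAD/D-45113 against 5xFAD/Veh. Depth limits Dkk2, Lgals3 and Clec7a in WT mice, where they had as few as 0, 3 and 3 reads.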
